A study of Mus musculus with 12 samples.

Results

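The comparison described here is that of kidneys from mice given cisplatin with kidneys from mice given only the vehicles, over every gene with an FPKM (fragments scaled to the length of the gene and to the reads of the library) of at least 1 in at least 3 of the 6 libraries. That rule kept 12930 of the 52636 genes of the deposited table and uses 6 of its 12 libraries. The rule looks only at the level and not at the difference between the groups. At its edge, the lowest of a gene's 3 highest values was 1.00016 FPKM for Limk1, just inside, and 0.9996 FPKM for Zbtb7c, just outside. All animals were male wild-type C57BL/6 mice, 8 weeks old. The control group (3 libraries) received daily corn oil by mouth for 4 days, a saline injection, and corn oil for 3 days more. The cisplatin group (3 libraries) was injected once, intraperitoneally, with cisplatin at 20 mg/kg in place of saline, and tissue was taken 4 days later. The treatment text places the cisplatin group once among animals pretreated with PCN (a rodent pregnane X receptor agonist, 40 mg/kg) and once among those given corn oil. Groups are taken here from the library titles, which name PCN only for the remaining 6 libraries. The animals carried no transgene, and the labels do not tie libraries to separate animals, so each p-value reflects library-to-library spread, part of which may be technical.

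Cisplatin is a platinum drug that crosslinks DNA. It is taken up by the proximal tubule, the nephron segment that reclaims most filtered solute, through organic cation and copper transporters, and the cells of this segment die or lose their specialised state after high doses. DNA damage activates the transcription factor p53, injured tubule cells express a set of secreted and surface proteins used as injury markers, and surviving cells dedifferentiate before the epithelium is restored.

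Each of the 6 libraries held between 18914607 and 26530485 reads assigned to genes, as recovered from the deposited values, so that 1 FPKM stood for 18.7 to 27.2 reads per kilobase of gene. The tissue label matched the markers: the summed level of 16 markers of the first 2 proximal tubule segments was 3355 to 3466 FPKM in the control libraries, and 7 adrenal cortex markers were all under 1 FPKM in every library, with Cyp11b2 at 0. Control replicate 1 stood apart in markers of other tissue. Its 10 adipocyte markers summed to 181 FPKM against 51.5 and 57.9 in the other control libraries, and its 8 erythroid markers to 1213 against 340 and 459. Without control replicate 1, 6851 genes passed in place of 7875, against 6677 and 6622 without control replicate 2 and 3. Among the cisplatin libraries, the adipocyte markers summed to 127 FPKM in replicate 3 against 72.8 and 67.3 in the others. Since these are whole kidneys, fewer cells of a type and less RNA per cell cannot be told apart in any result below.

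Cisplatin changed most of the measured transcriptome, and by similar numbers in both directions. In limma's test on log2(FPKM + 1), with a Benjamini-Hochberg adjusted p under 0.05 as the threshold for a gene to pass, 7875 of 12930 genes differed (60.9%), of which 3975 were higher with cisplatin (30.7% of those tested) and 3900 lower (30.2%). These shares are the background for every list below. The log2 changes ran from -7.44 to 8.52 with a median of 0.01. At least 2-fold changes were found in 1002 higher (7.75%) and 1026 lower genes (7.94%), at least 4-fold changes in 236 (1.83%) and 244 (1.89%), and at least 16-fold changes in 35 (0.271%) and 31 (0.24%). The 3 values of each group did not overlap for 8875 genes (68.6%), with cisplatin higher in 4436 (34.3%) and lower in 4439 (34.3%). The expression minimum itself favours such genes: 381 genes passed it through the cisplatin libraries alone, and 374 of these were called higher, while 420 passed it through the control libraries alone, and 412 of these were called lower. Of the 11058 genes that reached it in all 6 libraries, 3394 were higher and 3187 lower. The cisplatin libraries varied more among themselves. The median SD of log2(FPKM + 1) was 0.138 with cisplatin and 0.084 in control, and it was larger with cisplatin for 68.5% of genes.

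**Figure D1:**
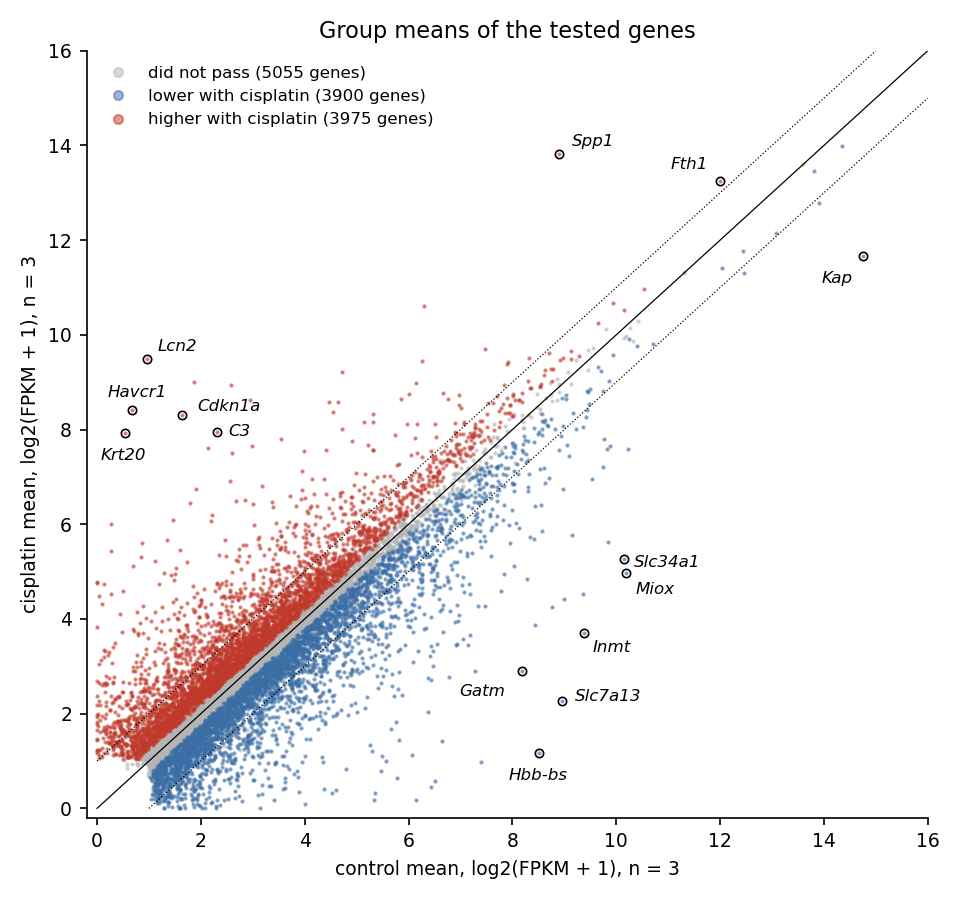
Log2 of the group mean FPKM plus 1 for the 3 cisplatin libraries (vertical) against the 3 control libraries (horizontal), over the 12930 tested genes, coloured by limma's call. The solid line marks equality and the dotted lines a 2-fold difference on this scale. Lcn2, Havcr1, Krt20 and Cdkn1a lie at the upper left, and Slc34a1, Miox, Inmt, Slc7a13 and Hbb-bs at the lower right, while Spp1 and Kap stand out among the most abundant transcripts.

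Transcripts abundant in kidneys without cisplatin fell more often than those scarce there. When genes were placed by their mean level in the PCN libraries, which enter neither group of this comparison, 56.1% of the 519 genes at 100 to 1000 FPKM were lower with cisplatin and 25% higher. Among the 4127 genes at 10 to 100 FPKM these shares were 38.6% and 27.4%. Among the 7621 genes at 1 to 10 FPKM they were 25.9% and 29.6%, and among the 637 genes under 1 FPKM 3.61% and 72.2%. At 1000 FPKM or more there were 26 genes, with shares of 53.8% and 11.5%. The PCN libraries also had no cisplatin, so this order places genes by their level without it. Genes raised from near absence are therefore placed low. A gene under 1 FPKM in every control library meets the expression minimum only through the cisplatin libraries. That held for 381 genes, of which 374 were called higher, so the 72.2% is partly set by the minimum itself. An order by level with cisplatin was not tested. The top of the table was reordered accordingly, with 62 of the 100 most abundant genes shared between the group means.

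Kap (ENSMUSG00000032758, chromosome 6, from 133849851 to 133853762), an androgen-regulated protein of the proximal tubule, was the most abundant transcript of the control kidney. It measured 30031, 25052 and 27460 FPKM in the control libraries and 3465, 3240 and 3063 with cisplatin. Its share of the summed FPKM went from 6.66% ± 0.535 (SD, n = 3) to 0.872% ± 0.0546, and its rank from 1 to 9. As a share of recovered reads, which does not weight short genes up, the values were 1.90% ± 0.178 and 0.240% ± 0.0152. Spp1 (ENSMUSG00000029304, chromosome 5, from 104435118 to 104441050), which encodes the secreted matrix and crystal-binding protein osteopontin, moved the other way, from rank 75 to rank 2. It measured 480, 455 and 495 FPKM in control and 12340, 16379 and 14627 with cisplatin, and took 3.88% ± 0.679 of the summed FPKM there against 0.116% ± 0.00488. All cisplatin libraries lay far above all control libraries. Fth1, the ferritin heavy chain that stores iron, rose from 4153, 4154 and 4008 FPKM to 9882, 8851 and 10361, and from rank 10 to rank 5. Gpx3, the secreted glutathione peroxidase made by the proximal tubule, kept rank 4 and fell by only 0.34 ± 0.08 (log2, SE; limma adjusted p = 0.00709), a call that was lost under quantile normalization, with all 12 libraries in the fit (adjusted p = 0.0980) and without an expression minimum (adjusted p = 0.573). The 13 mitochondrially encoded protein genes took part in the same shift. Of these 12 fell and none rose, with a median of -1.06, although mt-Nd1 (-0.01) did not pass and both mt-Nd1 and mt-Co1 had the opposite sign under quantile normalization (0.39 and 0.23). Without an expression minimum 5 of the 13 passed as lower. For mt-Co3, control replicate 1 stood at 781 FPKM against 174 and 234 in the other control libraries; its change was -1.45, or -0.80 without that library, and its call was lost when any 1 cisplatin library was left out. The call of mt-Co1 was lost without control replicate 3. Mitochondrially encoded genes together held 19.6% ± 0.762 of the summed FPKM in control and 15.0% ± 1.08 with cisplatin, or 9.21% ± 0.478 and 6.65% ± 0.473 of recovered reads. For the share of FPKM, and for those of Kap and 6 of 7 marker or response lists, an exact permutation test of 3 against 3 libraries gave p = 0.1, two-sided, the smallest it allows (0.113 adjusted over the 9 shares by Benjamini-Hochberg).

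**Figure D2:**
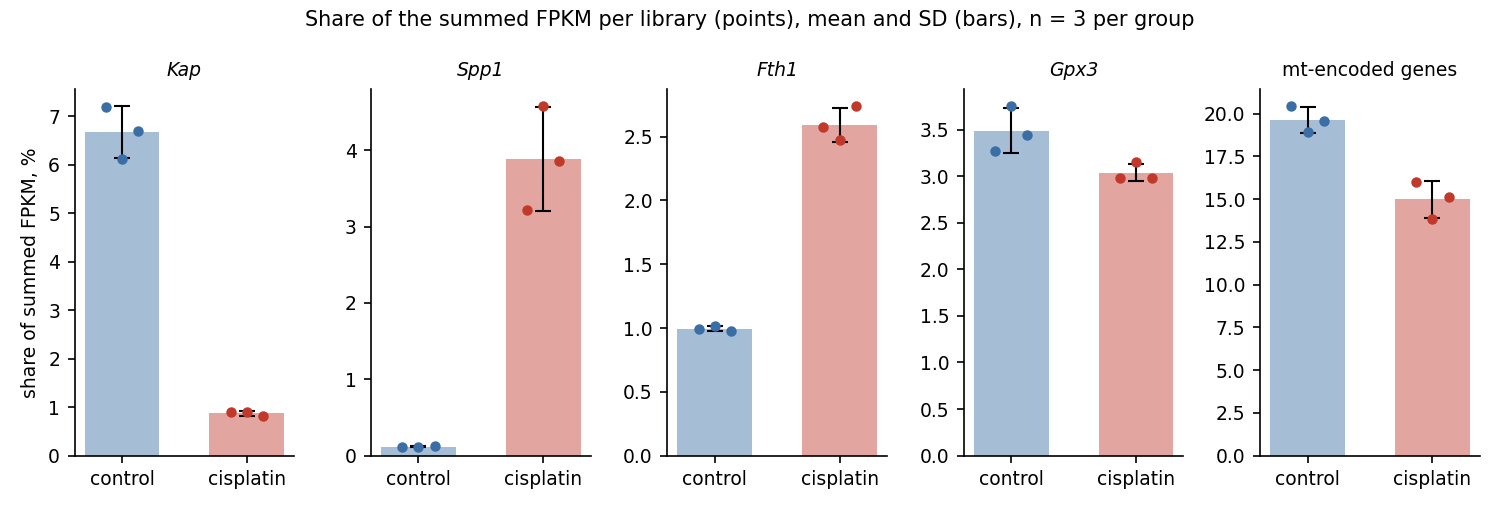
Share of the summed FPKM of each library, in percent, for 4 abundant genes and for the mitochondrially encoded genes; points are the 3 libraries of each group, bars their mean and error bars their SD. Kap and the mitochondrial genes take a smaller share with cisplatin and Spp1 and Fth1 a larger share, with no overlap between the groups.

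Marker genes fell along the nephron, by the largest amounts in the proximal tubule. Of 16 markers of its first 2 segments, S1 and S2, 15 fell and none rose (median -2.46), and only the bicarbonate transporter gene Slc4a4 did not pass (-0.18). Slc34a1, the main sodium-phosphate cotransporter, measured 1156, 1127 and 1100 FPKM in control and 45.3, 32.9 and 35.2 with cisplatin, a fall of 4.88 ± 0.12 (log2, SE; limma adjusted p = 6.33e-07). Gatm, the mitochondrial enzyme that makes the creatine precursor, fell from 350, 256 and 262 to 5.11, 8.12 and 6.21 FPKM. The groups lay far apart for both genes. The sodium-glucose transporter gene Slc5a2 fell by 2.67 and the endocytic receptor genes Lrp2 and Cubn had changes of -3.02 and -2.04.

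The last proximal segment, S3, held the largest fall of any nephron marker and also the only nephron markers that rose by over 0.6. Of its 12 markers 9 fell and 2 rose (median -1.86). Slc7a13 (ENSMUSG00000041052, chromosome 4, from 19818725 to 19842218), a cystine and acidic amino acid transporter of this segment, measured 434, 538 and 515 FPKM in control and 5.34, 3.62 and 2.59 with cisplatin. It fell by 6.71 ± 0.20 (adjusted p = 1.26e-06 in limma's test). Slc22a30 fell by 4.39, and the organic anion transporter gene Slc22a7 fell by 4.07. Against this, the sugar transporter gene Slc5a10 rose from 54.5, 55.7 and 51.5 to 144, 127 and 181 FPKM, and the neutral amino acid transporter gene Slc6a18 from 117, 131 and 131 to 226, 325 and 161 FPKM. The groups did not overlap for either gene. Slc5a1, the intestinal-type glucose transporter, did not pass (-0.27).

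Distal segments changed less, and unevenly from gene to gene. In the thick ascending limb, which dilutes the urine, 9 of 13 tested markers fell (median -1.43). Egf, the epidermal growth factor precursor made there, fell from 136, 170 and 159 to 4.95, 6.21 and 8.35 FPKM. The most abundant marker of the same cells, Umod (uromodulin), measured 1109, 1387 and 1322 FPKM in control and 683, 1053 and 1075 with cisplatin; the groups did not overlap, but the change of -0.46 ± 0.19 did not pass (adjusted p = 0.0624). The test of Umod passed when all 12 libraries entered the fit (adjusted p = 0.0333) and with array weights (-0.71, adjusted p = 0.00734). In the distal convoluted and connecting tubule 11 of 12 markers fell (median -1.0). Pvalb, a calcium-binding protein, fell from 20.8, 13 and 11.5 FPKM to under 0.1 in every cisplatin library, and the thiazide-sensitive transporter gene Slc12a3 fell by 2.87.

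The collecting duct and glomerulus moved least. Of 10 tested principal cell markers 3 fell, 1 rose and 6 did not pass (median -0.25). The water channel gene Aqp2 measured 275, 342 and 369 FPKM in control and 380, 288 and 259 with cisplatin, and the groups overlapped. Hsd11b2, which protects the mineralocorticoid receptor from glucocorticoids, fell by 1.42, and the sodium channel subunit gene Scnn1a rose by 0.47. Of 12 intercalated cell markers 7 fell and 2 rose (median -0.42), among which the anion exchanger gene Slc4a1 fell by 2.49 and the proton pump subunit genes Atp6v0d2 and Atp6v1g3 rose by 0.43 and 0.41. Of 11 tested podocyte markers 5 fell and 3 rose (median -0.23). The slit diaphragm gene Nphs1 (-0.22) did not pass.

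**Figure D3:**
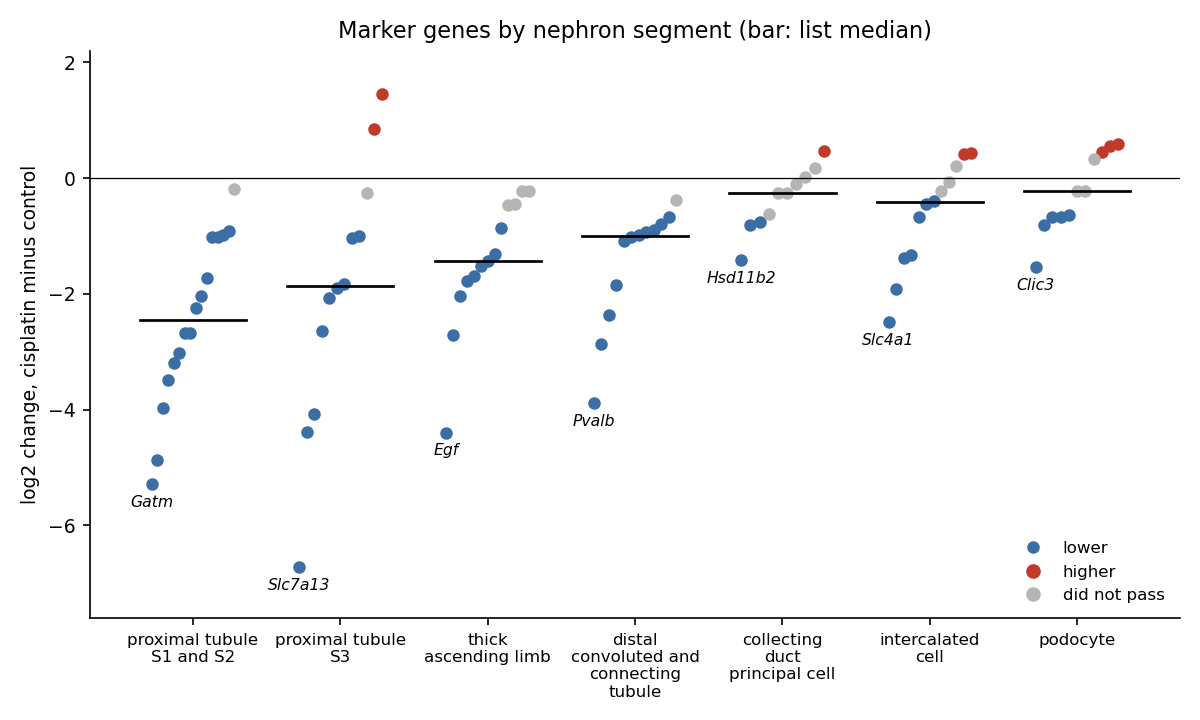
Log2 change (cisplatin minus control) of each tested marker gene, grouped by nephron segment in order along the nephron with the podocyte last; each point is 1 gene, coloured by limma's call, and the bar is the list's median. The medians go from -2.46 in proximal segments S1 and S2 to -0.23 in the podocyte, and the lowest marker of each list is named.

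Nearly all injury markers of the tubule rose, from control levels that ranged from near absence (Lcn2, Havcr1) to 495 FPKM (Spp1). Of 23 genes on this list 21 rose and 1 fell (median 1.78), and 4 of the 23 met the expression minimum through the cisplatin libraries alone. Lcn2, which encodes the siderophore-binding protein NGAL, measured 1.18, 0.752 and 0.938 FPKM in control and 653, 673 and 826 with cisplatin. Havcr1, which encodes the phosphatidylserine receptor KIM-1, measured 0.810, 0.512 and 0.484 FPKM in control and 232, 493 and 297 with cisplatin. No control library came near any cisplatin library for either gene. Among the keratins, the intermediate filaments of epithelia, Krt20 rose most, from 0.305, 0.296 and 0.766 FPKM to 234, 216 and 281. The simple-epithelium keratins Krt8, Krt18 and Krt19, already present in control, rose by 1.71, 1.89 and 1.78. Sox9, a transcription factor of tubule progenitor and repairing cells, rose from under 0.2 FPKM in each control library to 8.62, 8.83 and 7.06. Vcam1 and Cd44, surface adhesion molecules, rose by 1.28 and 1.61, Vim, a mesenchymal filament, by 0.64, and Sema5a fell by 0.70.

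Several genes of plasma proteins that the liver normally secretes were among the large rises; they belong to no list, and were grouped here after their values were seen. The 3 fibrinogen chain genes lie together on chromosome 3 and rose together. Fgg measured 2.63, 3.16 and 2.2 FPKM in control and 543, 344 and 643 with cisplatin, Fga 3.84, 6.54 and 4.56 against 562, 349 and 558, and Fgb 0.126, 0.253 and 0.223 against 62.6, 52.7 and 75.6. In all 3 genes cisplatin replicate 2 was the lowest of its group. Complement C3 went from 4.56, 4.34 and 3.06 to 249, 243 and 249 FPKM. Lrg1, a leucine-rich glycoprotein, rose by 5.43 and the protease inhibitor gene Serpina3n by 5.14. Saa1, serum amyloid A, was listed at 0 in all control libraries and at 21.7, 17.3 and 39.7 FPKM with cisplatin; Saa genes are near-identical, so reads may be divided among them. Of the 19 tested serpin genes 13 rose and 1 fell (median 1.32), and 5 of the 19 met the expression minimum through the cisplatin libraries alone. Serpinf2, which inhibits plasmin, fell by 2.95.

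p53 targets rose as a group. Of 30 genes on the list 24 rose, 2 fell and 4 did not pass (median 1.78), with 4 of the 30 above the expression minimum only in cisplatin libraries. Cdkn1a (ENSMUSG00000023067, chromosome 17, from 29090979 to 29100722), which encodes the cell-cycle inhibitor p21, measured 2.0, 2.13 and 2.23 FPKM in control and 297, 306 and 343 with cisplatin, a rise of 6.66 ± 0.08 (limma adjusted p = 7.15e-08). Gdf15, a stress cytokine, went from 4.70, 5.09 and 5.38 to 169, 207 and 162 FPKM. Btg2, an antiproliferative gene, went from 6.39, 7.23 and 7.16 to 180, 160 and 261 FPKM. The death genes Bbc3, Pmaip1 and Bax rose by 2.29, 1.85 and 1.55, and Mdm2, the ligase that degrades p53, by 1.84. Among the targets that did not rise, Xpc (0.31) and Ddb2 (0.20), both of nucleotide excision repair, did not pass, and Rrm2b, a ribonucleotide reductase subunit, fell by 0.73. Among 17 tested cell cycle and replication genes 10 rose and 2 fell (median 0.48), with 2 of the 17 above the minimum in cisplatin libraries alone. Rrm2, the S-phase ribonucleotide reductase subunit, went from 1.62, 1.47 and 1.5 to 5.66, 8.45 and 9.81 FPKM, the replicative helicase subunit gene Mcm4 rose by 0.91, and the cyclin genes Ccnd2 and Ccnd3 fell by 0.60 and 0.35. Of the 30 genes on that list 13 did not reach the expression minimum, among them Mki67 and Top2a, and the count of higher members was 19 when no expression minimum was used.

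All 17 tested immediate early and AP-1 genes rose (median 2.40), each by at least 1.26, and 2 of the 17 met the expression minimum through the cisplatin libraries alone. AP-1 is the dimer of Fos and Jun family proteins that binds DNA after growth or stress signals. Egr1 measured 1.65, 1.12 and 1.10 FPKM in control and 25, 23.0 and 29.4 with cisplatin. Fosl1, a Fos family member, measured 0.752, 0.642 and 0.733 against 14.0, 18.9 and 17.3, and Junb 8.08, 8.29 and 11.5 against 83.8, 64.7 and 114. No control library reached the level of any cisplatin library for these 3 genes. Maff, a small partner of bZIP factors, rose by 3.35, Atf3 by 2.57 and Myc by 2.40. By the factor families named in the deposited table, 21 of 36 tested bZIP factors rose and 9 fell, and 13 of 20 ETS factors rose and 1 fell. Of 55 homeobox factors 11 rose and 17 fell, against 221 higher and 199 lower of all 768 tested factors. Above the minimum in cisplatin libraries alone were 3 of the 36, 1 of the 20, 1 of the 55 and 15 of the 768. The bZIP family shares members with the AP-1 list, Fosl1 among them, so the counts of that family and that list overlap. How many members are shared was not counted. Hlf and Dbp, bZIP factors of the circadian output, were the bZIP members with the largest falls (log2 changes of -2.28 and -2.15); they are named here after their values were seen. The sources used here do not give the hour at which tissue was taken.

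The letters of the AP-1 site were then counted in promoters, because the genes of its subunits moved together. Promoter sequences from RefSeq (GRCm38.p6) were matched by symbol to 9011 of 11525 tested protein-coding genes, and the 250 bases before each start were searched on both strands. TGACTCA was present in 18 of 160 matched genes that rose at least 4-fold (11.2%) and in 4 of 160 that fell at least 4-fold (2.50%). It was present in 3.26% of the genes that did not pass, and in 5.16% of the 27025 genes of the promoter table. The letters TATAAA of the TATA box were present in 16.2% of the risers and 17.5% of the fallers, against 6.99% of the genes that did not pass and 14.3% of the promoter table. CCGGAAGT, an ETS site, showed the opposite order, with 2.50%, 1.88%, 7.43% and 3.23%. CAAAGTCCA, an HNF4 site, was present in 0.625% of the risers and 1.88% of the fallers (3 of 160), against 0.289% of the genes that did not pass and 0.451% of the promoter table. TTCCNGGAA, a STAT site, was present in 1.88%, 0.625%, 1.56% and 1.09%, in the same order. TTGCGCAA, a C/EBP site, was found in 1 of 160 risers and 0 of 160 fallers, against 0.231% of the genes that did not pass and 0.185% of the promoter table. Over all 9011 matched genes, TGACTCA was present in 3.97%, TATAAA in 7.98% and CCGGAAGT in 6.74%. CAAAGTCCA was present in 0.411% of them, TTCCNGGAA in 1.38% and TTGCGCAA in 0.244%. The risers include genes that met the expression minimum through the cisplatin libraries alone, such as Fgb and Sprr2f, and these were not counted apart. These motifs were picked after the values were seen, a match is only a run of letters, and the shares carry no test. The 4 largest rises whose promoters hold the AP-1 letters are shown, each 5′ to 3′ in the direction of the gene and ending at the base before the start, with the AP-1 letters in capitals on either strand.
Fgb, fibrinogen beta chain, chr3:83049864-83050113, minus strand: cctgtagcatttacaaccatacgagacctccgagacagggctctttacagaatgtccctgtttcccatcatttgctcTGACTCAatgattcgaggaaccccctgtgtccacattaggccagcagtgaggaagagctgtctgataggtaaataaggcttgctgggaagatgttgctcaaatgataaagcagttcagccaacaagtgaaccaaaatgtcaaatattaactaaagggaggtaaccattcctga
Sprr2f, a cornified envelope protein, chr3:92364937-92365186, plus strand: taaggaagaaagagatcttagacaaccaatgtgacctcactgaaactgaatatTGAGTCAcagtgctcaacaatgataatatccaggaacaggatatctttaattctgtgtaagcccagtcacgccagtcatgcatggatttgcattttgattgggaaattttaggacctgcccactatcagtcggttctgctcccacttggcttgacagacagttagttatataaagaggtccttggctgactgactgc
Aldh1a1, a retinaldehyde dehydrogenase, chr19:20492333-20492582, plus strand: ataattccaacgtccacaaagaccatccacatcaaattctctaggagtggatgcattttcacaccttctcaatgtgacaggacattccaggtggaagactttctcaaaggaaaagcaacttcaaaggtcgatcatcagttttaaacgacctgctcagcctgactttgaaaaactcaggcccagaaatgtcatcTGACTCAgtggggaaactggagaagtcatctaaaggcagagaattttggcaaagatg
Srxn1, sulfiredoxin, chr2:152105274-152105523, plus strand: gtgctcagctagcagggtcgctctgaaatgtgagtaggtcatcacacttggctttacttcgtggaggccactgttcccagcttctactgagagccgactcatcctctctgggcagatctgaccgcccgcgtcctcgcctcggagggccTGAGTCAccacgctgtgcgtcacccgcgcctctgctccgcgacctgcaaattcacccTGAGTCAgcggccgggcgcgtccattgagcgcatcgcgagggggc
The match lies 173 bases before the start in Fgb, 197 in Sprr2f and 57 in Aldh1a1, and Srxn1 holds 2 matches. The AP-1 letters overlap those of the antioxidant response element that Nrf2 binds, so the count does not separate the sites. Fgb rose by 5.74, Sprr2f by 4.41, Aldh1a1 by 3.67 and Srxn1 by 3.26.

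Genes of the Nrf2 response to electrophiles and oxidants rose, with 20 of 23 tested members higher and 2 lower (median 1.13). Of the 23, 1 met the expression minimum through the cisplatin libraries alone. Gsta1, a glutathione transferase, measured 0.727, 0.963 and 0.795 FPKM in control and 52.2, 54.1 and 36.5 with cisplatin. It lies in a run of 5 neighbouring genes on chromosome 9, from 78182774 to 78355788, that all rose at least 2-fold (Gsta4, Gsta1, Gm3776, Gm10639 and Gsta2); these paralogs are alike in sequence, so reads may be shared among them. Cbr3, a carbonyl reductase, went from 1.42, 1.95 and 1.95 to 72.0, 89.4 and 38.7 FPKM, and Srxn1, which repairs oxidised peroxiredoxin, from 23.3, 25.4 and 26.8 to 255, 330 and 186. In both genes cisplatin replicate 3 was the lowest of its group and still far above control. Hmox1, the haem oxygenase, rose by 2.46, Nqo1, a quinone reductase, by 2.24, and Gclc, which makes the glutathione precursor, by 1.88. Its partner subunit Gclm did not pass (-0.18), and the malic enzyme gene Me1 and Osgin1 fell by 1.31 and 1.02. Mt2, a metallothionein, rose from 0.273, 0.149 and 0.0760 to 9.54, 8.39 and 8.80 FPKM. Among 17 tested genes of the integrated stress response 12 rose and 3 fell (median 0.60), with 3 of the 17 above the minimum in cisplatin libraries alone; the factor gene Cebpb and the serine synthesis gene Psat1 rose by 2.60 and 1.96, and the mitochondrial serine enzyme gene Shmt2 fell by 1.73.

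Secreted signals changed in both directions. Of 24 tested growth factor and ligand genes 12 rose and 5 fell (median 0.85), with 4 of the 24 above the minimum in cisplatin libraries alone. The activin subunit gene Inhbb rose from 0.741, 0.546 and 0.641 to 11.4, 9.53 and 16.3 FPKM, and the gp130 cytokine genes Clcf1 and Lif rose by 2.90 and 2.60. Kl, which encodes the antiageing coreceptor Klotho, fell from 88.7, 78.2 and 78.8 to 4.79, 7.36 and 5.14 FPKM. The groups were separated in each of these. Fgf1 and Vegfa, growth factors for epithelium and endothelium, fell by 2.05 and 1.19. Of 14 tested chemokine and cytokine genes, a list that also counts Spp1, 9 rose and 1 fell (median 0.74), with 2 of the 14 above it in cisplatin libraries alone. The neutrophil attractant Cxcl1 rose from 0.342, 0.702 and 0.191 to 22.6, 25 and 21.6 FPKM, and Il34, a ligand of the macrophage receptor Csf1r, from 8.54, 5.91 and 6.96 to 72.7, 53.4 and 61.0, while Cxcl12 fell by 1.15. Il1b, Il6 and Tnf did not reach the expression minimum. Among receptors of the tumour necrosis factor family, Tnfrsf12a, the TWEAK receptor, rose from 30.8, 19.3 and 22.0 to 408, 413 and 328 FPKM, and 6 of 9 tested family members rose and 1 fell, with 3 of the 9 above the expression minimum in cisplatin libraries alone.

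Markers of leukocytes stayed at low levels in both groups and did not move as a block. The macrophage list gave 3 higher and 2 lower of 7 tested members. Cd68, a lysosomal protein, rose from 2.21, 2.27 and 1.49 to 15.4, 16.6 and 17.8 FPKM, whereas Csf1r, the receptor that defines the lineage, fell from 8.51, 10.1 and 9.28 to 3.79, 4.24 and 3.53, and Adgre1 fell by 0.33. The number of lower members was 1 in place of 2 when any library other than cisplatin replicate 2 was left out. The rises of C1qa and C1qb (0.53 and 0.42) were lost without cisplatin replicate 2, control replicate 1 or control replicate 3, which left 1 higher member in each case, and that of C1qb also without cisplatin replicate 1. Of 11 neutrophil markers 3 were tested (1 through the cisplatin libraries alone) and all 3 rose, S100a9 from 1.33, 1.34 and 2.23 to 10.5, 10.3 and 17.3 FPKM; the list summed to 3.07 to 4.47 FPKM in control and 22.7 to 37.0 with cisplatin, and Elane was at 0 in all 6 libraries. The 2 tested lymphocyte markers, the immunoglobulin genes Ighm and Igkc, fell by 1.71 and 1.45, and 11 of 15 were under 1 FPKM throughout. Fibroblast and matrix markers rose, 8 of 9 tested with none lower (median 0.89), from a sum of 44.9 to 64.9 FPKM to one of 148 to 168. Col18a1, a basement membrane collagen, rose by 2.01, from a mean of 22.2 to 91.7 FPKM, and made up most of the rise in that sum. Col3a1 and Pdgfra rose by 1.03 and 1.06. Lum, Postn and Fbln2 of this list did not reach the expression minimum. The count of higher members was 5 without cisplatin replicate 2 or without control replicate 3. Endothelial markers gave 3 higher and 4 lower of 13 tested, with Flt1 up by 0.82 and Tek down by 0.86 (log2). The basement membrane collagen genes Col4a1 and Col4a2, which lie next to each other, rose by 1.74 and 1.55.

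Haemoglobin transcripts nearly vanished. Hbb-bs measured 663, 183 and 253 FPKM in control and 3.45, 0 and 0.335 with cisplatin, and the 4 tested globin genes fell by 4.66 to 7.44. The erythroid list summed to 340 to 1213 FPKM in control and 23.9 to 31.7 with cisplatin, with control replicate 1 the highest. Of its 7 tested members 5 fell, 1 rose and 1 did not pass. Alas2, the haem synthesis enzyme of red cell precursors, fell by 2.01. Globin copies are near-identical, so the division of reads among them is uncertain. The part of blood left in the tissue in this difference was not tested.

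Transporter genes fell more often than they rose. Of 254 tested solute carrier genes, which include those on the segment lists, 134 fell and 68 rose (median -0.36). Of the 254, 7 met the expression minimum through the cisplatin libraries alone. The transporters that carry cisplatin itself fell: Slc22a2, the organic cation importer, from 142, 144 and 129 to 43.7, 36.9 and 36.7 FPKM, the exporter Slc47a1 by 1.45, and the copper transporter Slc31a1 by 0.83. Ggt1, a brush border enzyme that cleaves glutathione conjugates, fell from 258, 259 and 240 to 97.5, 71.0 and 65.5 FPKM. The efflux pumps Abcb1b and Abcc3 rose by 2.67 and 2.01, within a family of 32 in which 11 rose and 15 fell. In this family 2 of the 32 were above the minimum in cisplatin libraries alone. Slc22a28 measured 99.7, 72.1 and 84.2 FPKM in control and 0.544, 0.346 and 0.220 with cisplatin. It belongs to a run of 7 neighbouring Slc22a genes on chromosome 19, from 7673061 to 8628299, that all fell at least 2-fold. A second run of 6 N-acetyltransferase genes on chromosome 6, from 85706727 to 85869158, fell likewise, with Nat8f6 going from 89.1, 87.7 and 91.7 to 0.795, 0.535 and 0.173 FPKM. Another run, on chromosome 3 from 98445675 to 98893239, held Gm4450, Hsd3b4, Hsd3b2, Hsd3b3 and Hao2. In all, 9 runs of at least 4 adjacent tested genes changed at least 2-fold in the same direction, 5 higher and 4 lower. Some of these runs hold paralogs, among them the Slc22a, Nat8 and Hsd3b genes, and the sources used here do not say how reads shared among paralogs were counted. Others, such as the run of Ugcg, Susd1, Ptbp3 and Hsdl2 on chromosome 4, do not.

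Tight junction genes shifted in composition. Of 14 tested claudins 6 rose and 3 fell (median 0.01), with 2 of the 14 above the minimum in cisplatin libraries alone, and 5 fell without cisplatin replicate 2. Cldn4 rose from 15.9, 13.3 and 13.8 to 133, 117 and 165 FPKM, Cldn3 from 8.45, 9.40 and 10.1 to 56.3, 44.5 and 53.9, and Cldn7 and Cldn1 by 1.5 and 2.05. Cldn10, a claudin of the thick ascending limb and proximal tubule, fell by 0.86. Annexin and S100 calcium-binding genes rose in 15 of 21 tested cases and fell in 2, with 1 of the 21 above the minimum in cisplatin libraries alone. Among them S100a6 went from 24.1, 17.4 and 25.8 to 188, 381 and 414 FPKM. Of 18 tested integrin genes, 2 of them above the minimum in cisplatin libraries alone, 8 rose and 2 fell, led by Itgb3 (1.74) and the laminin receptor subunit genes Itga6 (1.64) and Itgb4 (1.40).

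**Figure D4:**
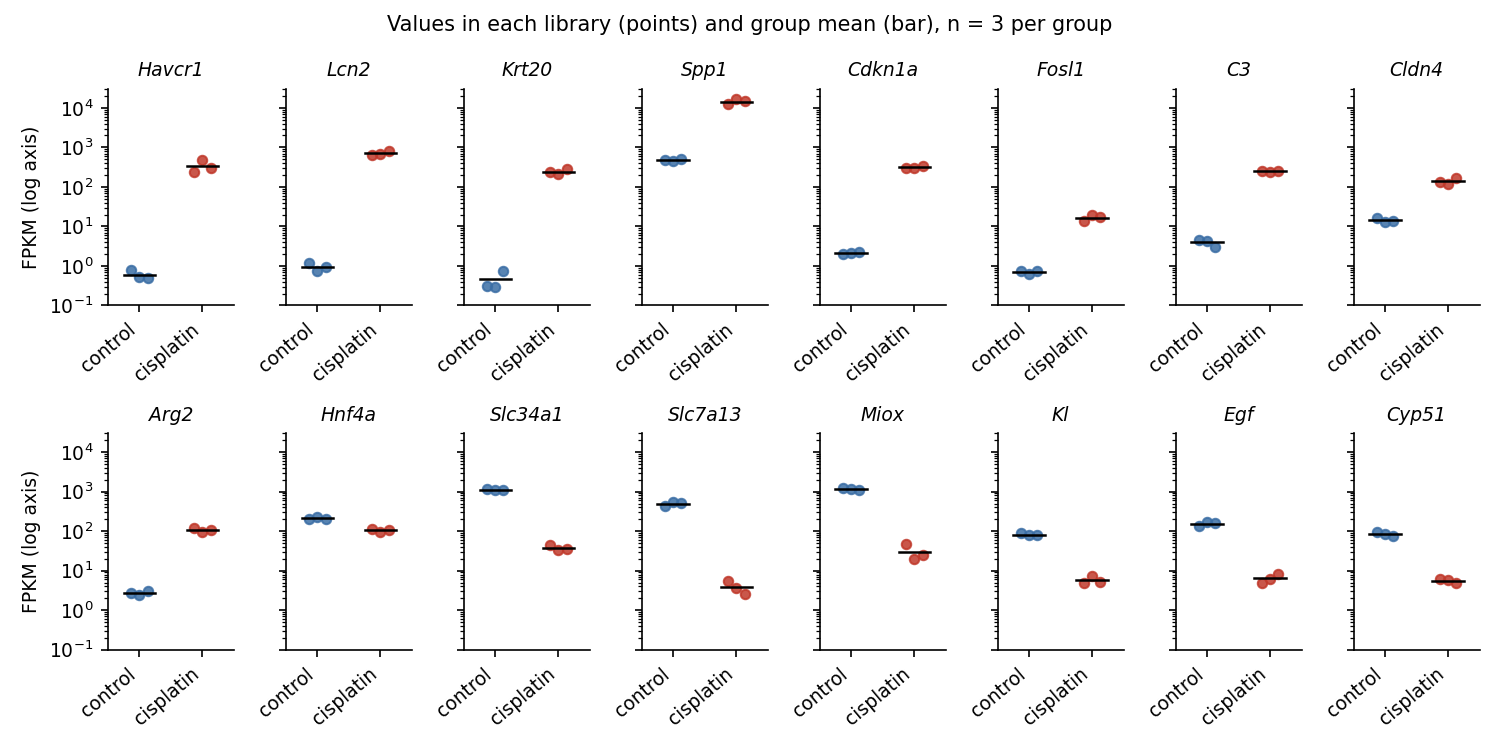
FPKM of 16 genes in each of the 6 libraries on a logarithmic axis; points are libraries and bars group means, with control in blue and cisplatin in red. In every panel the groups are separated, from the injury gene Lcn2 (under 1.2 FPKM in control, at least 653 with cisplatin) to Hnf4a, whose 3 cisplatin values (93.1 to 115) lie below the control values (204 to 224).

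Transcription factors of the differentiated nephron fell by modest amounts next to the genes of the segments. Of 24 on the list 12 fell and 4 rose (median -0.51). Hnf4a, the main factor of proximal tubule differentiation, measured 209, 224 and 204 FPKM in control and 115, 93.1 and 104 with cisplatin, a fall of 1.03 ± 0.09 (limma adjusted p = 9.72e-05). Emx1 fell by 2.27 and the oxidative metabolism regulators Esrra, Esrrg and Ppargc1a by 1.68, 1.06 and 0.93. The paralogs Pax2 and Pax8, both kidney lineage factors, moved in opposite directions. Pax8 rose from 7.88, 9.93 and 10.4 to 17.9, 15.0 and 17.2 FPKM, and Pax2 fell from 6.10, 8.01 and 7.85 to 5.55, 5.09 and 4.29; the Pax2 call was lost without control replicate 2 or 3 (adjusted p = 0.0529 and 0.0525 in limma's test). Nr1i2, which encodes the pregnane X receptor, went from 2.07, 2.61 and 2.80 to 6.51, 4.83 and 4.47 FPKM, and Ppara, the fatty acid receptor, rose by 0.67.

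Genes with a higher level in male than in female mouse kidney fell almost without exception. Of 14 such genes 13 fell and none rose (median -2.54). The transporter Slco1a1 went from 86.6, 49.2 and 61.0 to 1.5, 1.24 and 0.793 FPKM, and Cyp2e1, an ethanol-oxidising P450, from 528, 558 and 615 to 80.1, 32.8 and 48.1. Kap, Slc7a13 and Slc22a30 of this list were described above as proximal tubule genes, so the lists overlap. The 4 female-biased genes did not mirror this: Cyp2a4 and Slc7a12 fell by 1.65 and 1.53, Prlr (-0.54) did not pass, and Cyp4a14 rose from 144, 47.3 and 36.7 to 1038, 456 and 592 FPKM. The Slc7a12 call was lost without cisplatin replicate 3 or control replicate 3.

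Metabolic pathways went in different directions. Fatty acid oxidation genes rose in 15 of 22 cases and fell in 2 (median 0.62). Pdk4, a kinase that inhibits pyruvate dehydrogenase, went from 7.89, 5.20 and 6.94 to 361, 186 and 636 FPKM. It was lowest in cisplatin replicate 2, as was Cyp4a14 above. Cpt1a, which starts mitochondrial oxidation, rose by 0.71, while the medium-chain dehydrogenase gene Acadm fell by 1.2. Within the wider family of acyl-CoA enzymes 20 of 39 fell and 13 rose, with the medium-chain synthetase gene Acsm2 falling from 690, 630 and 654 to 29.6, 17.7 and 19.2 FPKM. Of the 39, 1 was above the minimum in cisplatin libraries alone.

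The tricarboxylic acid cycle fell almost throughout, with 17 of 18 genes lower, none higher, and all changes between -1.21 and 0.25 (median -0.78). Idh2, Sdha, Ogdh and Sucla2 fell by 1.21, 1.12, 1.11 and 1.05, and only the fumarase gene Fh1 did not pass. Nuclear genes of NADH dehydrogenase followed, with 26 of 37 lower and 2 higher (median -0.39), and Ndufs1 fell from 40.8, 39.2 and 39.7 to 15.6, 16.6 and 14.9 FPKM. Of 30 tested genes of amino acid breakdown 27 fell and 2 rose (median -1.28). Arg2 (ENSMUSG00000021125, chromosome 12, from 79130777 to 79156301), the mitochondrial arginase, went the opposite way, from 2.77, 2.36 and 3.04 to 118, 97.9 and 104 FPKM (4.86 ± 0.10, limma adjusted p = 5.82e-07). Gldc, of glycine cleavage, rose by 1.13. Cholesterol synthesis fell in 15 of 19 tested genes and rose in 1 (median -0.85), with Cyp51, the lanosterol demethylase, going from 94.8, 84.3 and 75.7 to 6.04, 5.90 and 4.76 FPKM.

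Counts for glucose metabolism lay near those of all tested genes. Of 20 tested glycolysis genes 7 rose and 5 fell (median 0.04), with 1 of the 20 above the minimum in cisplatin libraries alone. The glucose transporter gene Slc2a1, the hexokinase Hk2 and the pyruvate kinase Pklr rose by 1.59, 1.18 and 1.94. Pfkm, a phosphofructokinase, fell from 20.2, 20.3 and 18.6 to 6.94, 7.09 and 6.90 FPKM. Among 11 gluconeogenesis genes 3 rose and 4 fell, with Fbp1 and Mdh1 falling by 1.17 and 1.38, the glutamate enzyme gene Glud1 rising by 1.09, and Pck1 (0.30) and G6pc (0.35) not passing; 5 rose without cisplatin replicate 2.

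Genes of the cytosolic and mitochondrial ribosome parted. Of 81 tested cytosolic ribosomal protein genes 73 rose and 1 fell (median 0.56), and their summed share was 3.15% to 3.21% of FPKM in control and 5.13% to 5.52% with cisplatin. Over all alternatives run, 72 to 76 of them were higher and 1 or 2 lower. Rps27l, itself a p53 target, rose from 238, 212 and 230 to 501, 474 and 506 FPKM. Of 77 tested mitochondrial ribosomal protein genes 42 fell and 5 rose (median -0.28). Proteasome subunit genes rose in 17 of 38 cases and fell in none (median 0.23). Ribosomal protein genes have many processed pseudogenes, and of the 524 tested processed pseudogenes 173 were higher and 60 lower, so reads may have been divided between genes and copies.

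**Figure D5:**
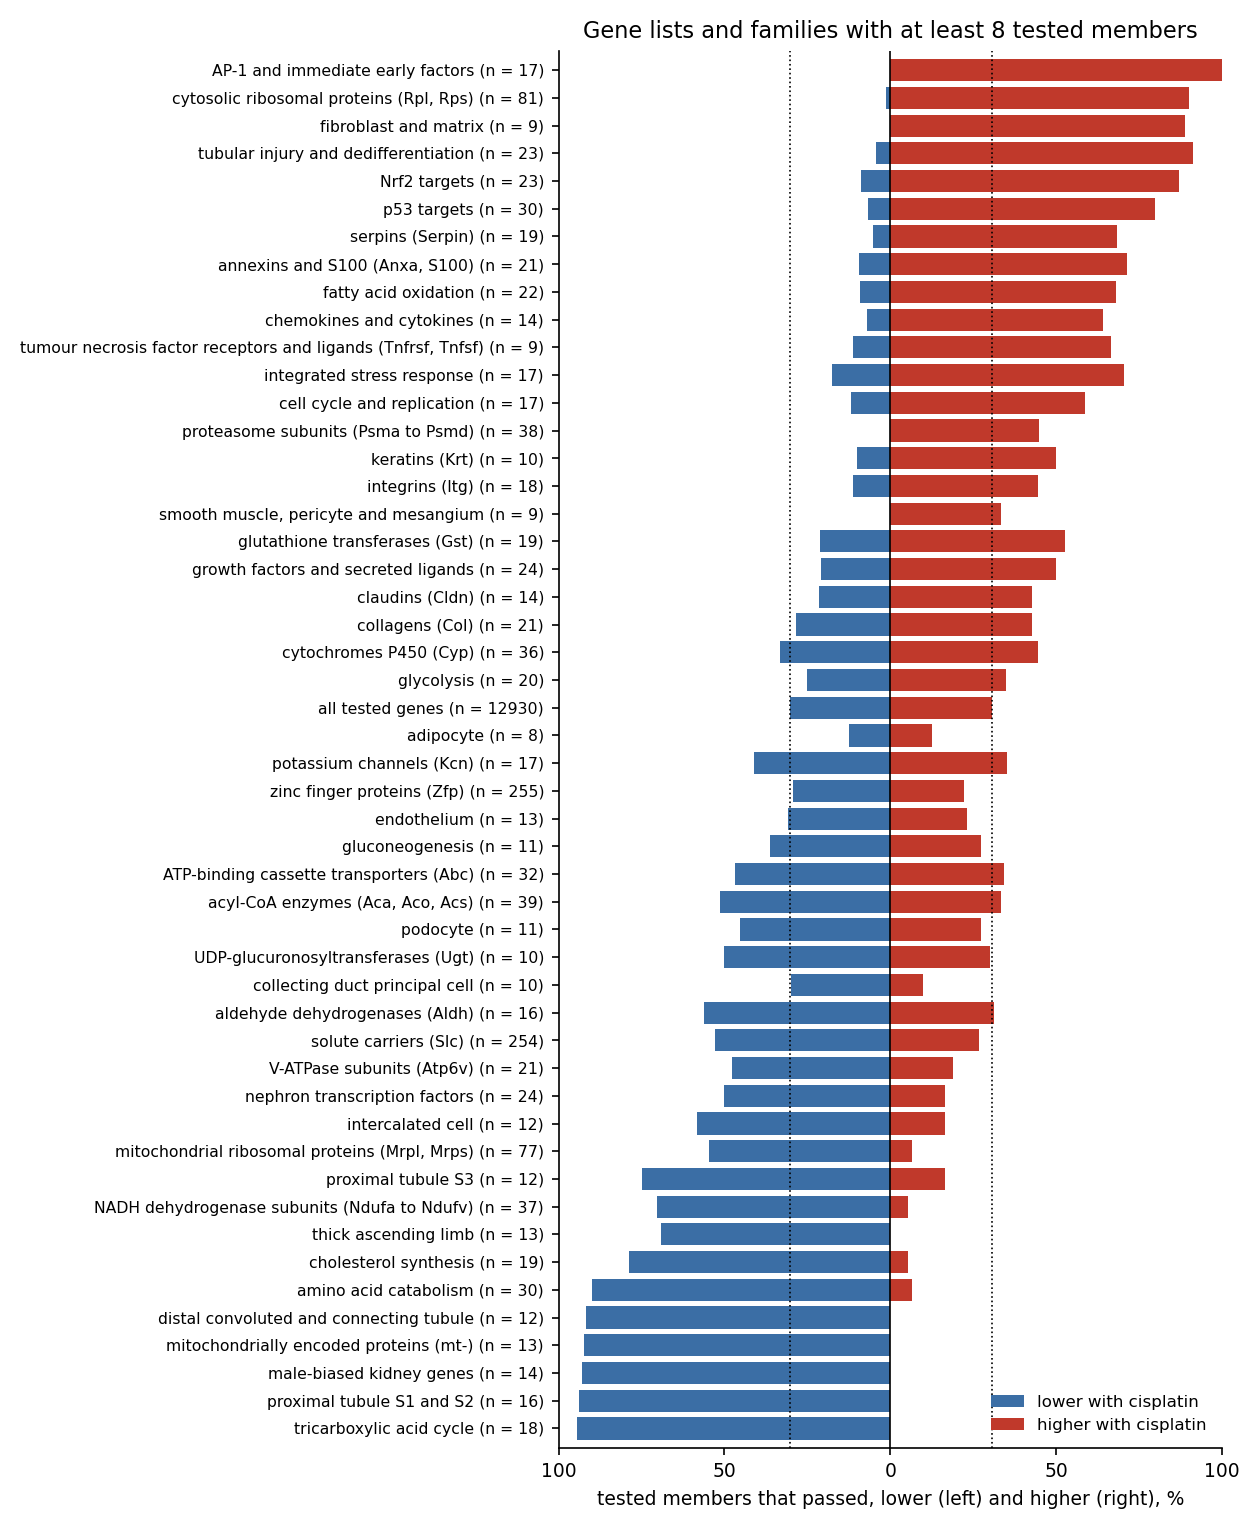
Percent of the tested members of each list or family that were lower (blue, left) and higher (red, right) with cisplatin in limma's test, for the sets with at least 8 tested members; dotted lines mark the shares over all 12930 tested genes (30.2% lower, 30.7% higher). AP-1 and immediate early genes, cytosolic ribosomal proteins and tubular injury genes stand at the top, and the tricarboxylic acid cycle, proximal tubule S1 and S2 and male-biased genes at the bottom.

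A small number of genes crossed from near absence to clear expression or the reverse. Under 1 FPKM in every control library and at least 5 in every cisplatin library were 39 genes, of which 35 code for protein. They include Timp1, a metalloproteinase inhibitor (0.361, 0.148 and 0.101 against 14.2, 30.0 and 21.8 FPKM), the protease inhibitor Slpi, endothelin Edn1 and the p53 target Eda2r. The reverse held for 33 genes, of which 24 code for protein, among them Slc22a22, Pzp, Cyp2d12, Nat8f6 and Hsd3b4. In the PCN libraries, which also had no cisplatin, 3 of the 39 reached 1 FPKM in some library and all 33 stayed at 5 FPKM or more. Long noncoding and antisense genes fell more often than they rose: 86 of 200 tested lincRNA genes fell and 41 rose, and 91 of 197 antisense genes fell and 36 rose. The sources used here do not say whether the libraries are stranded, and reads of antisense genes and their partners cannot be told apart.

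The 3 cisplatin libraries differed most from each other in a few strongly changed genes. 8430408G22Rik measured 83.3, 13.4 and 163 FPKM with cisplatin and at most 3.19 in control, and Crct1, a cornified envelope gene, 6.69, 28.7 and 44.6 against 0 in all control libraries. Keg1 went from 330, 302 and 293 FPKM to 14.2, 58.1 and 11.2. All 3 genes passed, and their groups did not overlap. Ucp1 and Gm10123 varied as widely in control and did not pass.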

How the data were processed

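The authors deposited FPKM per gene for 12 libraries. HISAT2 2.0.5, featureCounts 1.5.0-p3, DESeq2 1.16.1 and edgeR 3.18.1 are named without settings or roles, per the submitters' processing notes. These notes name build mm8, but 52489 of 52636 gene identifiers are in GENCODE M21 for GRCm38, 95.2% of them with the same coordinates, so coordinates are printed as deposited and read as GRCm38, each being the span of the whole gene. Reads recovered from FPKM and gene length came out whole within 0.001 for 100% of nonzero values. Replicate pairs did not agree within sampling noise (6.33 to 33.8 as chi-square per gene), so none was treated as deposited again. Control and cisplatin libraries were compared on log2(FPKM + 1) by limma 3.58.1 in R 4.3.3, two-sided, with the variance trend on mean level and Benjamini-Hochberg adjustment over all 12930 genes tested. Changes are on this scale, which understates those of low genes. The fit was also run on simulated data for this comparison, in which 200 of 12364 genes were changed. It recovered 53.3% of 1.5-fold, 82.4% of 2-fold and 92.4% of 4-fold changes, with 8 false calls. Whether these values carry over to data in which 60.9% of genes pass, as here, was not tested.

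The groups, the 33 gene lists, the 22 families and the rules were chosen with earlier results of these data known. Named were the 10 largest changes in each direction among protein-coding genes with separated groups, a panel, up to 4 members of each list or family with the largest change among those that passed, the 10 most abundant genes per group, the 5 with the largest SD and 3 long noncoding genes per direction. The text names a part of these, and further list members for their role or after their values were seen. Same-numbered replicates did not deviate together (correlations -0.089, -0.050 and 0.016), so no block entered the test. Alternatives were pseudocounts of 0.5 and 0.1, other expression minimums, 3 rescalings, all 12 libraries, limma-voom on recovered reads, a replicate block, array weights, and each library left out. Results for some genes and for 1 motif are not reported here.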

Additional observations from a re-analysis of the deposited data

How the results depend on the processing

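Of the 238 genes covered by the naming rule, 223 kept their call under each of the 17 alternatives in which they were tested; a mean of at least 5 FPKM as the minimum left some of them out. With a mean of at least 5 FPKM as the expression minimum, which leaves 7498 genes, 4977 changed, 2567 higher and 2410 lower. Leaving out each library gave 6622 to 8399 changed genes, 3311 to 4265 higher and 3298 to 4134 lower. Replicate numbers did not pair the samples, and with the replicate block 7204 genes changed, 3630 higher and 3574 lower, and Umod passed (adjusted p = 0.00976). With limma-voom on recovered reads the median of all genes shifted by 0.09 and 57.9% of calls were higher, against 50.5% as reported. The count of genes that passed and changed at least 2-fold depended on the pseudocount. It was 2028 with the pseudocount of 1, 2413 with 0.5, 2791 with 0.1, and 2919 with limma-voom. At a threshold of 10 in place of 5 FPKM, 16 genes switched on and 15 off. Under quantile normalization mt-Co1 (0.23) and mt-Nd1 (0.39) reversed; the cause was not tested. Without an expression minimum 5 mitochondrially encoded genes passed as lower in place of 12. Depth limits genes near 1 FPKM, which rest on 18.7 to 27.2 reads per kilobase.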
